A study of Mus musculus with 6 samples.

Results

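The genes described here are 10 members of the homeostatic chemokine system of skin and lymphatic vessels, taken by gene symbol from a table of 19309 genes: the ligands Ccl27a, Cxcl14, Cxcl12, Ccl19 and Ccl21a, the receptors Ccr10, Cxcr4 and Ccr7, and the atypical receptors Ackr3 and Ackr4. RNA came from whole ear skin of 3 C57BL/6 mice, aged 6 to 8 weeks, all sensitised with 25 µL of 0.5% DNFB (2,4-dinitrofluorobenzene, a skin-reactive hapten) as a model of allergic contact dermatitis. The DNFB group is the left ears, which from day 6 received 10 µL of 0.25% DNFB for 6 days, and the vehicle group is the right ears of the same mice, which received the solvent (80% acetone, 20% olive oil). The vehicle ears therefore also come from DNFB-sensitised animals, and there is no ear of an unsensitised mouse among the 6 libraries. The comparison asks how this set of chemokine genes differs between challenged and solvent-treated skin.

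Homeostatic chemokines are made by resident cells without an inflammatory trigger and set where leukocytes settle and leave. In skin, CCL27 is made by keratinocytes and binds CCR10, a receptor of skin-homing T cells, while CXCL14 is a chemokine of healthy epithelium. CXCL12 acts through CXCR4 to hold and attract leukocytes, and ACKR3 takes it up and removes it without classical G protein signalling. CCL21, made by lymphatic endothelium, and CCL19 both bind CCR7 and guide dendritic cells and T cells into lymphatic vessels and lymph nodes, and ACKR4 removes both ligands.

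Of the 10 members, 9 had enough counts to be tested and 8 of these passed an adjusted p of 0.05 in edgeR's quasi-likelihood test, 5 higher and 3 lower in DNFB ears. Cxcl14, Ccr7, Cxcr4, Ccl19 and Cxcl12 rose, Ackr4, Ccl21a and Ccl27a fell, Ackr3 did not pass and Ccr10 was too low to test. DNFB shifted a large part of the transcriptome, and 51.3% of all 15317 genes tested passed (25.9% higher and 25.4% lower), so passing by itself says little about these genes. Levels are given below in TPM, the authors' transcript abundance scaled for length and depth, whereas fold changes, standard errors (SE) and adjusted p-values come from the counts by that same test. Libraries held 19556754 to 20336945 estimated counts. The TPM of the groups did not overlap for 9 of the 10 members, counting Ccr10, which was too low to test. Of the 9 tested members only Ackr3 overlapped, whereas 61.1% of the genes tested did not overlap (28.7% with DNFB ears higher and 32.4% lower). Without both ears of mouse 2 the number of members past the threshold was 5.

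**Figure D1:**
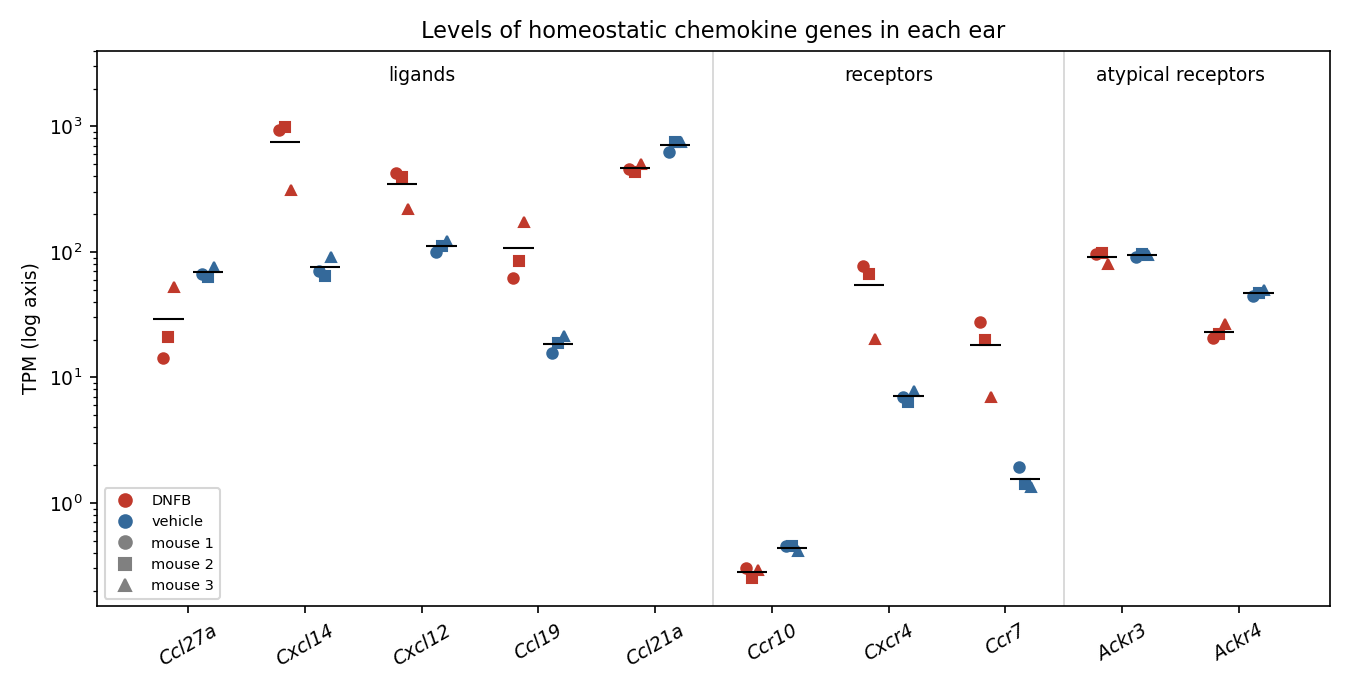
TPM (log axis) of each member in the 3 DNFB ears (red, left of each pair) and 3 vehicle ears (blue, right), with marker shapes for mice and a black line at the group mean. Cxcl14 averaged 743 TPM in DNFB ears and 75.3 TPM in vehicle ears, while Ackr3 averaged 91.1 TPM in DNFB ears and 93.8 TPM in vehicle ears.

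3 of the ligands belong to families of near-identical genes on mouse chromosome 4, and reads of 50 bases cannot always tell the copies apart. Of the 50-base windows in the GENCODE M21 transcripts (build GRCm38) of Ccl21a, 71.6% were also present in a transcript of another gene, against 52.0% for Ccl19 and 45.0% for Ccl27a. No window of Cxcl14, Cxcl12, Ccr10, Cxcr4, Ccr7 or Ackr3 was shared. Transcript Ccl21a-201 and that of its copy Gm21541, listed as Ccl21d in the table, differed at 6 of 870 bases. The stretch below is shown because it holds the coding difference that separates the gene products. The substitution is C269T, counted from 1 at the 5′ end of Ccl21a-201 and given as the base of Ccl21a, the position and the base of the copy. It changes codon 65 of Ccl21a, TCA for serine, to TTA for leucine, and the capital marks that base in positions 244 to 293.
Ccl21a: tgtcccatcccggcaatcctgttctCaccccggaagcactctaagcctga
Gm21541: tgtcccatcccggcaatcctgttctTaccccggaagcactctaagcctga
The other coding difference, T159A, leaves the glycine of codon 28 as it is, and is shown with the capital at that base in positions 134 to 183.
Ccl21a: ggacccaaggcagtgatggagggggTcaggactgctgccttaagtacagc
Gm21541: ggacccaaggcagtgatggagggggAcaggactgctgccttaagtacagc
A read that misses all 6 positions cannot be assigned to either gene.

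Promoter sequences were available from RefSeq (build GRCm38.p6, 250 bases before to 50 after the start site) for 8 of the 10 members, in 10 entries. Both strands were searched for the interferon-stimulated response element core (GAAA, any 2 bases, GAAA), the NF-kB consensus, the AP-1 motif TGANTCA and the TATA box TATAAA. The first of these matched in 3.44% of all 32851 promoter entries and in those of Cxcl14 and Ccl19, both of which rose. The NF-kB consensus (4.51% of all entries) and the AP-1 motif (7.81%) matched in 1 of the 3 entries for Ccl27a, which fell, and the TATA box (13.6%) in those of Cxcr4, Ackr3 and Ackr4. A match is only a run of letters, and no binding was measured. The Cxcl14 and Ccl19 promoters are printed because they share the first motif, which is in capitals, and the Ccl27a promoter shows the AP-1 motif and, after the start site, the NF-kB consensus in capitals. All 3 lie on the minus strand and read 5′ to 3′: Cxcl14 at chr13:56296502-56296801, Ccl19 at chr4:42756316-42756615 and Ccl27a at chr4:41770163-41770462.
Cxcl14: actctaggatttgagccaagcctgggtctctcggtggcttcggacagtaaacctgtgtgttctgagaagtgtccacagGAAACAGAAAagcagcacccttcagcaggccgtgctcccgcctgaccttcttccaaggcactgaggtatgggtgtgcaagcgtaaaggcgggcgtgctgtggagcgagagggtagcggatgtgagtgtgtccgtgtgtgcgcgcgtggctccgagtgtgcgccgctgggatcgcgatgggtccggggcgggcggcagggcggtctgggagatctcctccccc
Ccl19: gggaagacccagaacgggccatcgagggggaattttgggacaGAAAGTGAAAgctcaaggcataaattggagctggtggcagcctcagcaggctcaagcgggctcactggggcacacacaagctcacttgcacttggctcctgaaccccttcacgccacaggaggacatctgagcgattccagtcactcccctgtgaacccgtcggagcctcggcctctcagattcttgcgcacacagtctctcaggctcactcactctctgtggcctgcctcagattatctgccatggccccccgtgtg
Ccl27a: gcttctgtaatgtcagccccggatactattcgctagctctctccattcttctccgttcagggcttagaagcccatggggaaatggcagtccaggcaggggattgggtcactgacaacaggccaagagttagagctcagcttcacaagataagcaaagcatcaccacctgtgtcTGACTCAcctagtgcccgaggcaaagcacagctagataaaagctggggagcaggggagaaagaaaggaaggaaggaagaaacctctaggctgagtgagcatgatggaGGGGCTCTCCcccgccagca

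Cxcl14 rose and Ccl27a fell, in whole ear skin that does not separate epidermis from dermis. Cxcl14 stood at 928, 988 and 313 TPM in the DNFB ears of mice 1, 2 and 3, against 70.2, 64.6 and 91.2 TPM in their vehicle ears. Every DNFB ear was above every vehicle ear, and the DNFB ear of mouse 3 was the lowest of its group. The rise was 10.1-fold (log2 fold change 3.33 ± 0.43 SE, adjusted p = 0.000933, edgeR), and within mice 1, 2 and 3 it was 13.4-fold, 14.7-fold and 3.71-fold. In DNFB ears Cxcl14 had the highest mean of the 10 members, 743 ± 374 TPM (SD, n = 3), although in the DNFB ear of mouse 3 Ccl21a stood above it at 501 TPM, whereas in vehicle ears it stood below Ccl21a, Cxcl12 and Ackr3 at 75.3 ± 14.0 TPM (SD, n = 3).

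Ccl27a, the keratinocyte ligand of CCR10, stood at 14.4, 20.9 and 52.0 TPM in the DNFB ears of mice 1, 2 and 3, against 66.4, 62.9 and 76.1 TPM in their vehicle ears. The groups did not overlap, but the DNFB ear of mouse 3 came close to the vehicle ears. The fall was 2.17-fold (log2 fold change −1.12 ± 0.40 SE, adjusted p = 0.0489, edgeR), and the log2 ratio within mice 1, 2 and 3 was −2.01, −1.49 and −0.41. The call is fragile. The adjusted p was 0.0525 with no filter on low counts. It lay between 0.0821 and 0.145 when the DNFB ear of mouse 1 or 2, or any 1 vehicle ear, was left out, and was 0.147 without mouse 1 and 0.269 without mouse 2, whereas without the DNFB ear of mouse 3 the log2 fold change was −1.77 (adjusted p = 7.28e-05, edgeR). Its copy Ccl27b fell too (log2 fold change −0.69 ± 0.20, adjusted p = 0.0245), and the sum of Ccl27a with the 5 rows that share its windows gave −0.89 (adjusted p = 0.0373).

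Keratinocyte markers moved beside these ligands. Of the 10 markers of differentiated keratinocytes, 9 fell and none rose (median log2 fold change −1.60, against −0.02 over all genes tested), with a summed level of 2938 to 6445 TPM in DNFB ears and 11760 to 15270 TPM in vehicle ears. Without mouse 2 the number past the threshold was 5. Among them Flg2, which helps build the cornified layer, fell by 3.11 ± 0.31 on the log2 scale. Of all genes tested, 25.9% were higher and 25.4% lower. Of the 8 basal keratinocyte markers 2 fell, Krt15 and Dst, and none rose (4 called without mouse 3 or its DNFB ear, 1 without mouse 2, and 5 with the DNFB ear of mouse 1 alone), and the sum was 5551 to 8614 TPM in DNFB ears and 6777 to 8333 TPM in vehicle ears. A log2 ratio here is the log2 TPM of a member minus the mean log2 TPM of a list. For Ccl27a to the differentiated markers it averaged −2.42 ± 0.58 in DNFB ears and −2.77 ± 0.22 in vehicle ears (SD, n = 3 each). For Ccl27a to the basal markers it averaged −2.58 ± 0.56 in DNFB ears and −1.74 ± 0.185 in vehicle ears (SD, n = 3 each). Within mice 1, 2 and 3 this basal ratio differed by −0.92, −1.25 and −0.33, DNFB minus vehicle. The groups overlapped for both Ccl27a ratios. The log2 ratio of Cxcl14 to the basal markers averaged 2.14 ± 1.31 in DNFB ears and −1.62 ± 0.27 in vehicle ears (SD, n = 3 each), with no overlap. Set against the fibroblast markers, Cxcl14 averaged 1.53 ± 0.695 in DNFB ears and −1.23 ± 0.17 in vehicle ears (SD, n = 3 each), also with no overlap. The ratios were tested by an exact permutation of the 6 libraries that ignored which ears came from the same mouse. With 3 ears against 3 this test cannot go below 0.1. After adjustment over the 15 ratios of members to marker lists the smallest value was 0.167. The part that these marker shifts play in the levels of Ccl27a and Cxcl14 was not tested, and in whole skin fewer cells of a type and less RNA per cell cannot be told apart.

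**Figure D2:**
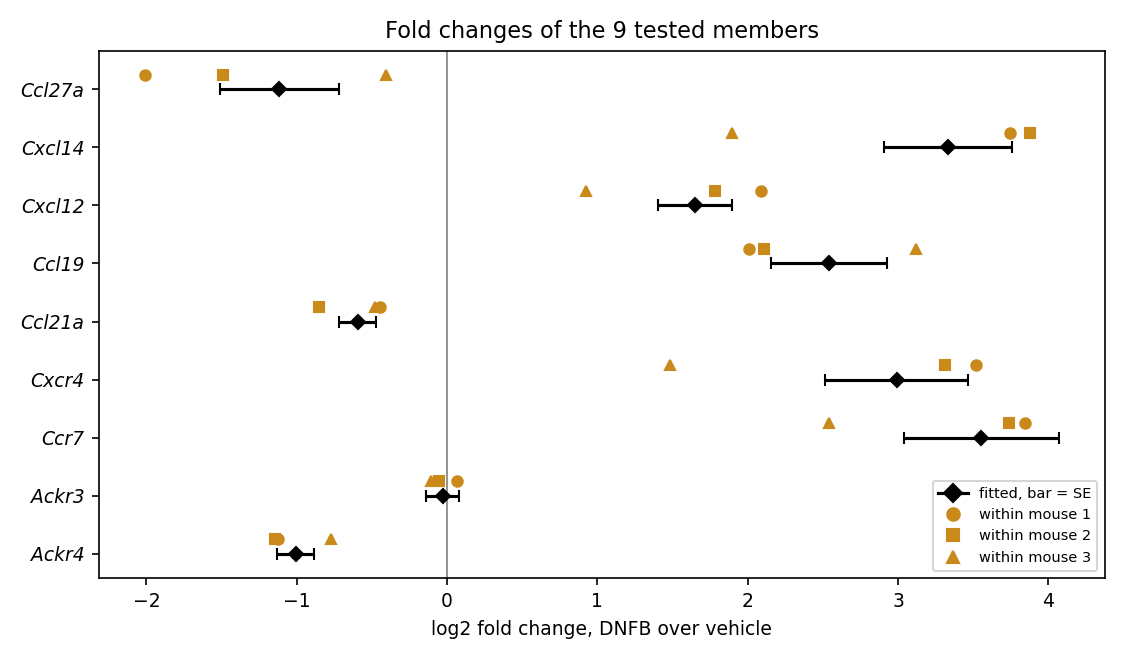
Log2 fold change, DNFB over vehicle, of the 9 tested members: black diamonds are the fitted values with bars of 1 SE, and orange symbols the log2 ratios within each mouse. Mouse 3 (triangles) lies closer to 0 than the other mice for Cxcl14, Cxcl12, Cxcr4, Ccr7, Ccl27a and Ackr4 and farther from 0 for Ccl19.

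Along the CXCL12 axis the ligand and its signalling receptor rose, while the scavenging receptor did not pass. Cxcl12, made by fibroblasts and endothelium, stood at 425, 398 and 220 TPM in the DNFB ears of mice 1, 2 and 3, against 98.8, 111 and 122 TPM in their vehicle ears. The groups did not overlap, and the rise was 3.14-fold (log2 fold change 1.65 ± 0.24 SE, adjusted p = 0.00168, edgeR). Cxcr4 stood at 77.5, 66.9 and 20.2 TPM in the DNFB ears and at 6.94, 6.36 and 7.83 TPM in the vehicle ears. It rose 7.94-fold (log2 fold change 2.99 ± 0.47 SE, adjusted p = 0.00224), with an adjusted p of 0.0574 without both ears of mouse 2. Ackr3, the scavenger of CXCL12, stood at 95.4, 97.2 and 80.6 TPM in the DNFB ears and at 91.7, 96.2 and 93.6 TPM in the vehicle ears, so the groups overlapped. Its log2 fold change was −0.03 ± 0.11 SE (adjusted p = 0.834), with a sign that differed between alternatives (−0.10 to 0.05).

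The 2 receptors of CXCL12 thus stood in another proportion in the DNFB ears. The TPM ratio of Cxcr4 to Ackr3 was 0.813, 0.689 and 0.250 in the DNFB ears of mice 1, 2 and 3, against 0.0757, 0.0661 and 0.0837 in their vehicle ears. These ratios between members were chosen after their values were seen and are a description. The TPM ratio of Cxcl12 to Ackr3 was 4.46, 4.10 and 2.73 in the DNFB ears and 1.08, 1.15 and 1.30 in the vehicle ears. In both ratios the DNFB ear of mouse 3 lay nearest to the vehicle ears.

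**Figure D3:**
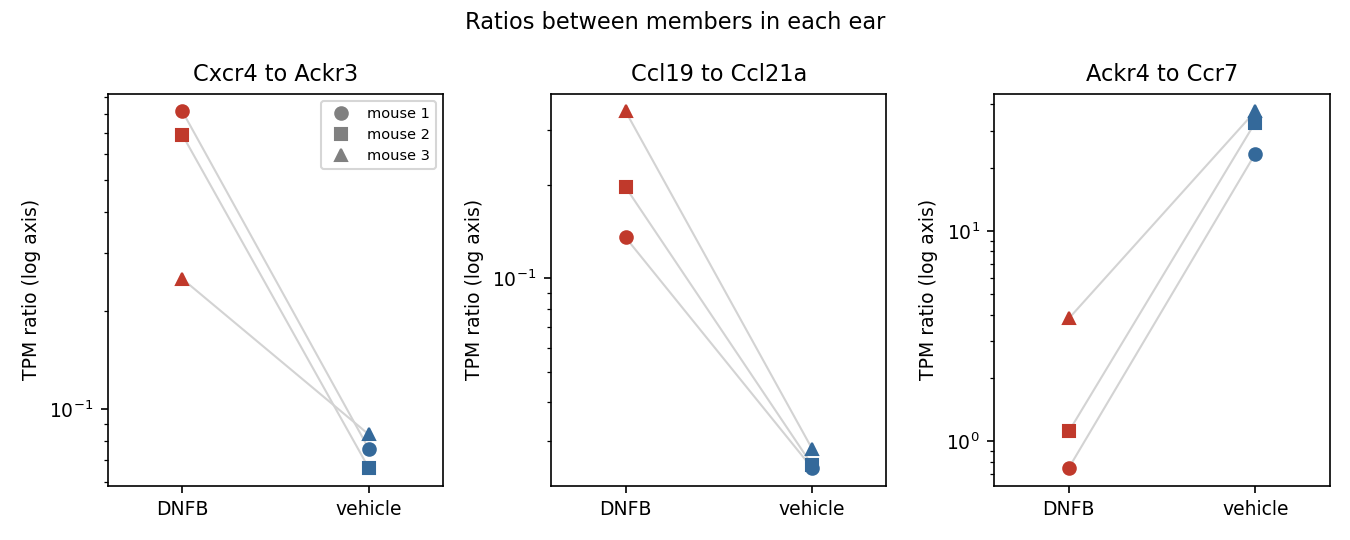
TPM ratio (log axes) of Cxcr4 to Ackr3, Ccl19 to Ccl21a and Ackr4 to Ccr7 in DNFB ears (red, left) and vehicle ears (blue, right), with grey lines joining the ears of 1 mouse. The first 2 ratios were higher and the third lower in every DNFB ear than in any vehicle ear.

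Genes known to act on the CXCL12 axis were mostly higher: of 19 tested, 11 rose, 1 fell and 7 did not pass, with a median log2 fold change of 0.70 (−0.02 over all genes tested). The adhesion molecule Vcam1 rose by 2.92 ± 0.43 on the log2 scale, the receptor-desensitising arrestin Arrb2 by 2.60 ± 0.37, the hypoxia factor Hif1a by 1.87 ± 0.15 and the hyaluronan receptor Cd44 by 1.76 ± 0.13. The gene that fell, Foxc1, a transcription factor of stromal cells that make CXCL12 in bone marrow, is named because it was the only one (log2 fold change −0.78 ± 0.16). Mif, an alternative ligand of CXCR4, was abundant and did not pass, at 653 ± 71.7 TPM in DNFB ears and 562 ± 54.0 TPM in vehicle ears (SD, n = 3 each). Without both ears of mouse 2 the number past the threshold was 6. With all ears kept, 25.9% of all genes tested were higher and 25.4% lower.

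Markers of the cells known to carry these genes were called higher more often than lower. Among all genes tested, 25.9% were higher and 25.4% lower. The median log2 fold change was 0.32 for fibroblast markers and 0.64 for blood endothelial markers, against −0.02 over all genes tested. Fibroblast markers summed to 8199 to 9970 TPM in DNFB ears and 8447 to 9482 TPM in vehicle ears, which overlap, with 6 of 16 higher and 3 lower, or 2 called in all without mouse 2. Blood endothelial markers summed to 395 to 611 TPM in DNFB ears and 245 to 332 TPM in vehicle ears, with 9 of 16 higher and 1 lower, or 6 and 3 called in all without mouse 1 or mouse 2. The log2 ratio of Cxcl12 to the fibroblast markers averaged 0.55 ± 0.29 in DNFB ears and −0.66 ± 0.11 in vehicle ears (SD, n = 3 each). Set against the blood endothelial markers, Cxcl12 averaged 4.11 ± 0.21 in DNFB ears and 3.29 ± 0.21 in vehicle ears (SD, n = 3 each). The log2 ratio of Ackr3 to the blood endothelial markers averaged 2.23 ± 0.17 in DNFB ears and 3.06 ± 0.24 in vehicle ears (SD, n = 3 each). In none of these ratios did the groups overlap. Ackr3 itself did not pass. Selp and Sele, both on the blood endothelial list, rose by 4.17 ± 0.27 and 2.60 ± 0.41 on the log2 scale.

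Cxcr4 is carried by most leukocytes, and leukocyte markers were much higher. Of all genes tested, 25.9% were higher and 25.4% lower. Neutrophil markers rose in 10 of 11 tested cases and summed to 3355 to 7147 TPM in DNFB ears and 297 to 469 TPM in vehicle ears. Monocyte and macrophage markers rose in 13 of 14 cases and summed to 5513 to 9149 TPM in DNFB ears and 1832 to 2143 TPM in vehicle ears. T cell markers rose in 13 of 15 cases and summed to 153 to 334 TPM in DNFB ears and 66.4 to 91.6 TPM in vehicle ears. The log2 ratio of Cxcr4 to these lists differed with the list chosen: DNFB minus vehicle it was −1.76 for neutrophils, 0.15 for macrophages and 0.62 for T cells, and the groups were apart for the neutrophil list alone. The part of leukocyte entry in the rise of Cxcr4 was not tested.

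On the lymphatic side, Ccr7 and Ccl19 rose while Ccl21a and the scavenger Ackr4 fell. Ccr7, the receptor that dendritic cells use to leave the skin, stood at 27.4, 19.9 and 6.98 TPM in the DNFB ears of mice 1, 2 and 3, against 1.92, 1.42 and 1.33 TPM in their vehicle ears. The rise was 11.8-fold (log2 fold change 3.56 ± 0.52 SE, adjusted p = 0.00154, edgeR). Ccl19 stood at 62.2, 85.0 and 172 TPM in the DNFB ears and at 15.5, 18.8 and 21.5 TPM in the vehicle ears, a rise of 5.82-fold (log2 fold change 2.54 ± 0.39 SE, adjusted p = 0.00187). For Ccl19 the DNFB ear of mouse 3 was the highest of all ears, the reverse of its place for Ccr7. Summed with the 2 rows that share its windows, Ccl19 gave a log2 fold change of 2.27 (adjusted p = 0.00132).

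Ccl21a was the most abundant member in vehicle ears. It stood at 459, 433 and 501 TPM in the DNFB ears of mice 1, 2 and 3, against 628, 745 and 755 TPM in their vehicle ears. The groups did not overlap and the fall was 1.51-fold (log2 fold change −0.60 ± 0.12 SE, adjusted p = 0.00610), with an adjusted p of 0.0990 without both ears of mouse 2. The split between copies bears on this value. The rows of Ccl21c, Ccl21d, Gm10591 and Gm13304 held the same count as each other in every library. It was 586, 835 and 853 in the DNFB ears and 622, 931 and 708 in the vehicle ears. These rows are thus not separate measurements, and each of them enters the sum given below. How reads were divided among the copies is not stated. None of these rows passed (for Ccl21c the log2 fold change was −0.00 ± 0.21 SE, with an adjusted p of 0.992, edgeR). Ccl21b held 464 counts in the vehicle ear of mouse 1 and under 1 count in each other library. Ccl21a and these 5 rows together held 6880, 7556 and 8412 counts in the DNFB ears and 9083, 11082 and 10020 in the vehicle ears, which gave a log2 fold change of −0.41 (adjusted p = 0.0380). Ccl21a made up 66.0%, 55.8% and 59.5% of that sum in the DNFB ears and 67.5%, 66.4% and 71.7% in the vehicle ears.

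**Figure D4:**
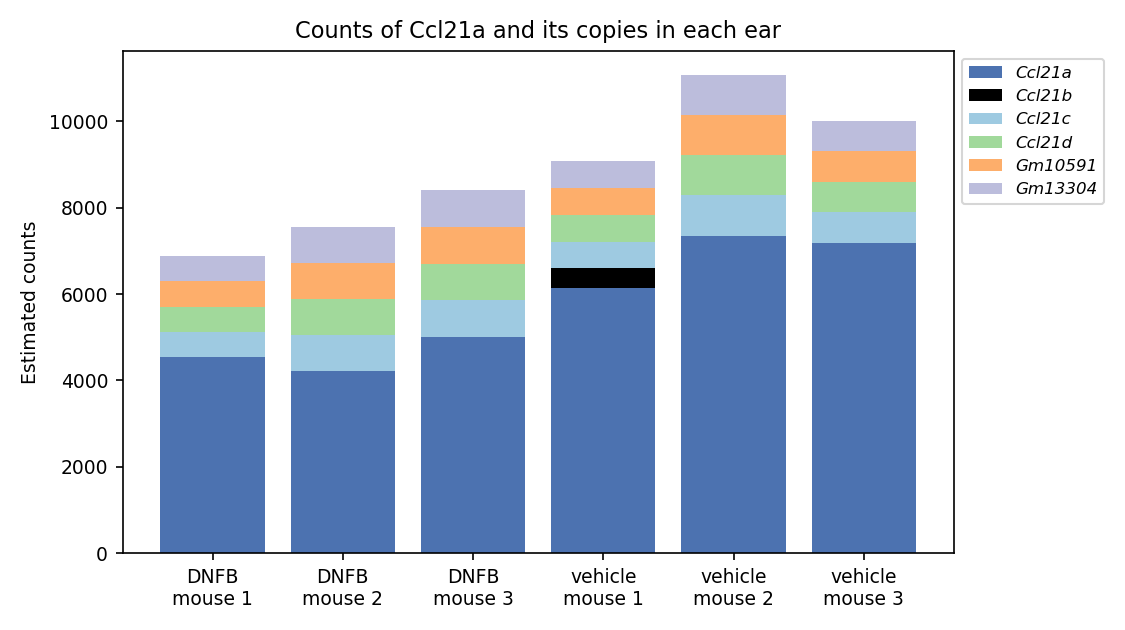
Estimated counts of Ccl21a and of the 5 rows that are near-identical copies, stacked for each DNFB ear (left) and vehicle ear (right). The sum was 6880 to 8412 in DNFB ears and 9083 to 11082 in vehicle ears, and Ccl21b appears in 1 vehicle ear.

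Ackr4, which removes CCL19 and CCL21, stood at 20.4, 22.2 and 26.8 TPM in the DNFB ears of mice 1, 2 and 3, against 44.7, 46.6 and 49.3 TPM in their vehicle ears. The groups were well apart, and the fall was 2.01-fold (log2 fold change −1.01 ± 0.12 SE, adjusted p = 0.000789, edgeR). Ackr4 and Acad11, an acyl-CoA dehydrogenase gene, share 384 of the 5328 windows of Ackr4 on opposite strands, and with no strand setting given their reads cannot be told apart there. Acad11 had a like change, at 14.7, 18.9 and 25.0 TPM in the DNFB ears and 39.6, 42.8 and 35.9 TPM in the vehicle ears (2.00-fold lower, adjusted p = 0.00624). The TPM ratio of Ackr4 to Ccr7 was 0.747, 1.11 and 3.84 in the DNFB ears and 23.3, 32.8 and 37.1 in the vehicle ears. That of Ccl19 to Ccl21a was 0.135, 0.196 and 0.344 in the DNFB ears and 0.0246, 0.0252 and 0.0284 in the vehicle ears.

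Markers of lymphatic endothelium did not move as 1 group. Of the defining markers, Prox1, the lineage transcription factor, fell by 0.88 ± 0.15 and Mmrn1 by 1.19 ± 0.15 on the log2 scale, while Lyve1 (0.17, adjusted p = 0.439) and Flt4 (0.05, adjusted p = 0.820) did not pass. The 4 together summed to 68.9 to 93.2 TPM in DNFB ears and 89.8 to 117 TPM in vehicle ears, and none was at 0. Over all genes tested 25.9% were higher and 25.4% lower. On the wider list of 12 tested markers 5 were higher and 4 lower, or 4 called in all without mouse 2. Those higher included Pdpn, by 2.45 ± 0.16 on the log2 scale, which keratinocytes and fibroblasts also make, and Fgl2, by 1.70 ± 0.14, which myeloid cells also make. The log2 ratio of Ccl21a to the defining markers averaged 5.49 ± 0.06 in DNFB ears and 5.63 ± 0.16 in vehicle ears (SD, n = 3 each). Those groups overlapped, and with 3 ears against 3 the test of this ratio could not have shown a difference. Ackr4 set against the basal keratinocyte markers overlapped as well, with a mean log2 ratio of −2.70 ± 0.29 in DNFB ears and −2.29 ± 0.21 in vehicle ears (SD, n = 3 each).

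Dendritic and Langerhans cell markers summed to 3728 to 5704 TPM in DNFB ears and 1570 to 1944 TPM in vehicle ears. Without mouse 2, 8 of them were called in all. With all libraries they rose in 13 of 18 cases and fell in 2, against 25.9% higher and 25.4% lower over all genes tested. Those that fell were Cd207, which encodes the Langerhans cell protein langerin, at 10.2, 12.7 and 34.8 TPM in the DNFB ears and 53.7, 45.7 and 44.0 TPM in the vehicle ears (log2 fold change −1.30 ± 0.44, adjusted p = 0.0420, edgeR), and Epcam, an adhesion molecule of Langerhans cells and epithelium (−1.05 ± 0.35, adjusted p = 0.0409, edgeR). The sum is mostly the MHC class II chains H2-Aa, at 2405 TPM in DNFB ears and 920.5 TPM in vehicle ears on average, and H2-Ab1, at 1986 TPM in DNFB ears and 601 TPM in vehicle ears, which other antigen-presenting cells also make. These 4 genes were chosen after their values were seen. The log2 ratio of Ccr7 to the whole list averaged −0.06 ± 0.92 in DNFB ears and −2.14 ± 0.35 in vehicle ears, and that of Ccl19 averaged 2.57 ± 0.86 in DNFB ears and 1.36 ± 0.17 in vehicle ears (SD, n = 3 each). Both pairs of groups were apart. B and plasma cell markers, which could also carry Ccr7 and Cxcr4, stayed low, at a sum of 4.23 to 15.7 TPM in DNFB ears and 2.07 to 3.30 TPM in vehicle ears, with 2 of 3 tested members higher, none past the threshold without mouse 2 and 1 without mouse 1, the DNFB ear of mouse 1 or 2, or the vehicle ear of mouse 1 or 3. The part of any of these cells in the rise of Ccr7 was not tested.

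Other genes of lymph node entry and CCR7 signalling rose broadly, with 14 of 16 tested higher, 1 lower and 1 not passing (median log2 fold change 1.88). Among all genes tested 25.9% were higher and 25.4% lower, with a median of −0.02. Ltb, a lymphotoxin chain, rose by 3.43 ± 0.42 on the log2 scale, and Tnfsf11, the ligand RANKL, by 5.87 ± 1.02. The gene that fell was Chst2, a sulfotransferase, named because it was the only one (log2 fold change −0.93 ± 0.12). Lta did not pass (0.82 ± 0.56, adjusted p = 0.255).

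Ccr10, the receptor of CCL27, was barely detected in either group. It held 6, 5 and 6 counts in the DNFB ears of mice 1, 2 and 3, against 9, 9 and 8 counts in their vehicle ears, or 0.28 ± 0.026 TPM in DNFB ears and 0.437 ± 0.023 TPM in vehicle ears (SD, n = 3 each). The groups did not overlap, but the summed counts were 17 in DNFB ears and 26 in vehicle ears. Their ratio per total count was 0.644, with an exact 95% interval of 0.328 to 1.23 that covers counting error only, so no difference was detectable at this depth. Fitted with no filter on low counts, its log2 fold change was −0.61 ± 0.41 (adjusted p = 0.269). T cell markers rose in the same ears, and the log2 ratio of Ccr10 to them averaged −5.07 ± 0.62 in DNFB ears and −2.46 ± 0.31 in vehicle ears (SD, n = 3 each).

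On the list of T cell skin homing 15 of the 18 genes tested were higher and none lower, with a median of 1.73 on the log2 scale. Without mouse 2, 7 were called in all. Over all genes tested, 25.9% were higher and 25.4% lower. Which cells of the whole skin carried these transcripts was not tested. Itgal, an integrin chain of leukocytes, rose by 4.14 ± 0.42, Cxcr3, a receptor of effector T cells, by 3.22 ± 0.51 and Fut7, which builds selectin ligands, by 2.85 ± 0.62 on the log2 scale. Ccr4, the other classical skin-homing receptor beside Ccr10, missed the threshold, at 2.97 ± 0.67 TPM in DNFB ears and 4.05 ± 1.19 TPM in vehicle ears (SD, n = 3 each; log2 fold change −0.42, adjusted p = 0.193).

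Among the other chemokines and receptors with homeostatic roles, 10 of 22 rose, 1 fell and 11 missed the threshold, with a median of 0.72 on the log2 scale. Over all genes tested 51.3% passed, with 25.9% higher and 25.4% lower, so the share called here was near that of all genes. Ccl8, a skin chemokine, stood at 4481, 3175 and 1298 TPM in the DNFB ears of mice 1, 2 and 3 and at 188, 187 and 183 TPM in their vehicle ears (log2 fold change 4.02 ± 0.44). Ccrl2, a chemoattractant-binding receptor, rose by 3.43 ± 0.60 and Cxcr6, the receptor of CXCL16, by 2.12 ± 0.38 on the log2 scale. Cxcr5, the receptor of CXCL13, reached 1.52, 1.14 and 0.550 TPM in the DNFB ears and was listed at 0 in 2 vehicle ears. The gene that fell was Ccl28, another ligand of CCR10, named because it was the only one (log2 fold change −1.18 ± 0.40, adjusted p = 0.0433). Cx3cl1 did not pass (−0.36, adjusted p = 0.0920). The number past the threshold was 7 without the vehicle ear of mouse 1 or 2, 5 without mouse 1 and 3 without mouse 2.

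**Figure D5:**
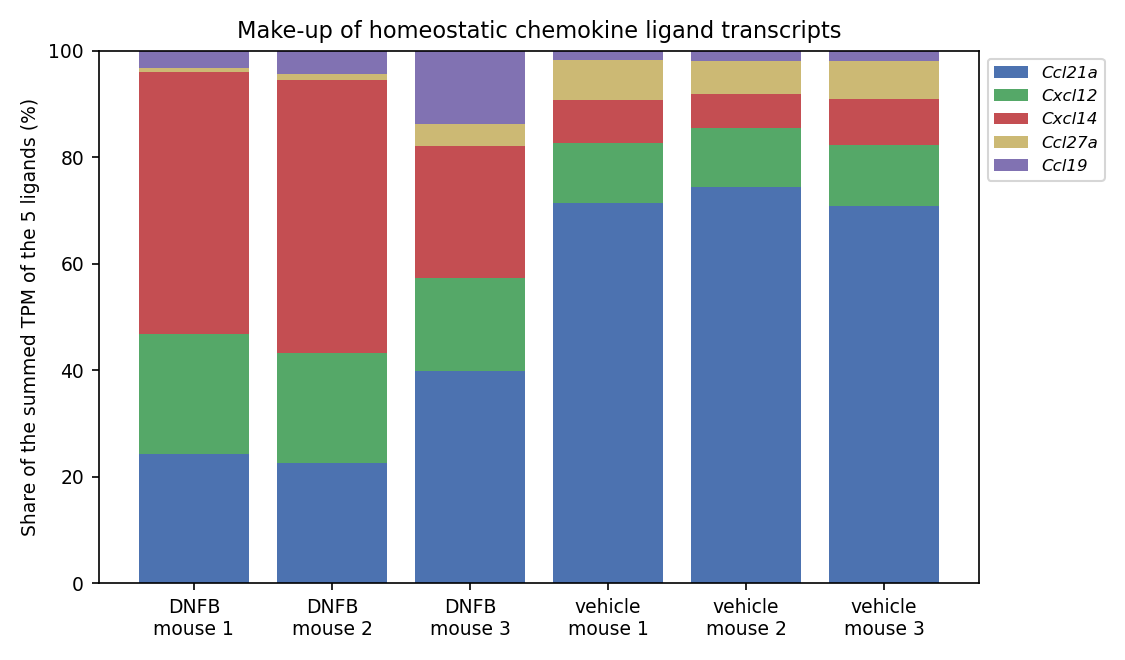
Share (%) of each of the 5 ligands in their summed TPM, in each DNFB ear (left) and vehicle ear (right). Ccl21a made up 24.3%, 22.5% and 39.8% in the DNFB ears and 71.5%, 74.3% and 70.9% in the vehicle ears, and Cxcl14 49.2%, 51.3% and 24.9% in the DNFB ears and 7.99%, 6.44% and 8.56% in the vehicle ears.

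The make-up of the ligand transcripts differed between the groups. The TPM of the 5 ligands summed to 1889, 1925 and 1258 in the DNFB ears of mice 1, 2 and 3 and to 879, 1002 and 1066 in their vehicle ears. Ccl21a held 28.9 ± 9.51% of that sum in DNFB ears and 72.2 ± 1.86% in vehicle ears, Cxcl14 41.8 ± 14.7% in DNFB ears and 7.66 ± 1.09% in vehicle ears, and Ccl27a 1.99 ± 1.86% in DNFB ears and 6.99 ± 0.65% in vehicle ears (SD, n = 3 each). The order of mean levels in DNFB ears was Cxcl14, Ccl21a, Cxcl12, Ccl19, Ackr3, Cxcr4, Ccl27a, Ackr4, Ccr7 and Ccr10. Of the neighbours in this order, Cxcl14 and Ccl21a, Ccl19 and Ackr3, Cxcr4 and Ccl27a, Ccl27a and Ackr4, and Ackr4 and Ccr7 had overlapping TPM values. In vehicle ears the order was Ccl21a, Cxcl12, Ackr3, Cxcl14, Ccl27a, Ackr4, Ccl19, Cxcr4, Ccr7 and Ccr10, and there the values of Cxcl14 and Ccl27a overlapped and those of the other neighbours did not.

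Set against the average of the DNFB ears of mice 1 and 2, that of mouse 3 lay at −1.60 for Cxcl14, −0.89 for Cxcl12, −1.84 for Cxcr4 and −1.73 for Ccr7 on the log2 CPM scale. In the opposite direction it lay at 1.46 for Ccl27a, 1.26 for Ccl19 and 0.35 for Ackr4. It thus lay nearer to the vehicle ears for all of these except Ccl19. In the same ear the summed neutrophil markers were 3355 TPM, against 7147 and 6166 TPM in the DNFB ears of mice 1 and 2, and the T cell markers 153 TPM, against 334 and 268 TPM. With a single ear the part of these markers in its chemokine levels was not tested.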

How the data were processed

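Whole ear skin of 3 mice was profiled by RNA-seq, with 1 DNFB ear and 1 vehicle ear each. Per the submitters' processing notes HISAT and the build GRCm39 were used. No source used here gives the counting tool, annotation or strand setting. The authors deposited, per the file headers, estimated counts, TPM and FPKM for each library. The counts carry decimals (36.3% to 37.6% of nonzero values in the vehicle ears and the DNFB ear of mouse 1, 61.7% and 64.2% in the DNFB ears of mice 2 and 3) and were rounded. FPKM, a deposited unit, was not used.

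The 2 groups were tested against each other in edgeR 4.0.16, R 4.3.3 (TMM, filterByExpr with a minimum count of 10, quasi-likelihood test, two-sided, no block) with Benjamini-Hochberg adjustment over 15317 genes. SE is the absolute log2 fold change over the root of F. The fit was tested on simulated data. TPM ratios to marker lists used log2(TPM + 0.1). Alternatives used DESeq2 1.42.0 and limma 3.58.1. The mouse numbers in the labels name the same animal in both groups. Correlations of same-mouse deviations were −0.03, −0.15 and −0.05 for mice 1, 2 and 3, and a fit blocked on mouse was run as an alternative.

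Members and lists were chosen with earlier results of these data known. List genes are named by a rule, the 4 called genes of greatest change and the 2 most abundant uncalled ones. Foxc1, Chst2, Ccl28, Acad11, Cd207, Epcam, H2-Aa and H2-Ab1 were chosen after their values were seen. Trdc, on the T cell list, and Ackr5 were not analysed here.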

Additional observations from a re-analysis of the deposited data

How the results depend on the processing

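The calls of Cxcl14, Cxcl12, Ccl19, Ccr7 and Ackr4 kept their direction and side of the threshold under all 20 alternatives, including the copies summed and the DNFB ear of mouse 1 alone against the vehicle ears, both added after seeing the data. With the replicate block the number of members past the threshold was 8 and the number of genes 6601, and no member's call changed. Ccl27a gave −1.12 (adjusted p = 0.0525) with no filter on low counts. Leaving out a library or a mouse gave −1.77 to −0.81 for Ccl27a (adjusted p 7.28e-05 to 0.269), −0.67 to −0.46 for Ccl21a (0.00230 to 0.0990) and 2.64 to 3.43 for Cxcr4 (3.94e-07 to 0.0574). Ackr3, which never passed, ranged from −0.076 to 0.048 there, positive without the DNFB ear of mouse 3 (0.048), the vehicle ear of mouse 2 (0.03) or mouse 3 (0.02), and was 0.05 with the DNFB ear of mouse 1 alone.

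Leaving out a library or a mouse gave 2594 to 9108 genes past the threshold (main value 7862), 1658 to 4585 higher and 936 to 4601 lower, and 5 to 8 members. The lowest counts came without mouse 2. Each group likewise holds 2 ears without mouse 1 (4487 genes) and without mouse 3 (9066 genes). For the lists the numbers past the threshold were 3 to 14 for other homeostatic chemokines, 6 to 15 for the CXCL12 axis, 7 to 16 for skin homing, 4 to 10 for lymphatic endothelium, 3 to 13 for blood endothelium, 2 to 12 for fibroblasts, 1 to 4 for basal keratinocytes, 5 to 9 for differentiated keratinocytes, 8 to 16 for dendritic cells and 0 to 3 for B cells. With the DNFB ear of mouse 1 alone 5 basal keratinocyte markers passed. With log2(TPM + 1) the ratio of Ccr10 to T cell markers was −1.87 and that of Cxcr4 to neutrophil markers −1.13, DNFB minus vehicle. Without 1 mouse the ratio of Ackr4 to basal keratinocyte markers ranged from −0.70 to −0.25, that of Ccr10 from −3.14 to −2.33 and that of Cxcr4 to neutrophils from −1.91 to −1.53. The causes of these shifts were not tested. Ccr10, at 5 to 9 counts per library, is limited by depth.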
